A study of Mus musculus with 46 samples.

Results

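The genes described here encode 8 receptors for fatty acids and related metabolites: Ffar1, Ffar2, Ffar3, Ffar4, Hcar1, Hcar2, Gpr84 and Gpr119. They were found on the array through the RefSeq accession of each probe, which gave 10 of the 55681 non-control probes. Each gene was read from its brightest probe on average over the arrays of a tissue, which left 1 probe ID per gene. They are 8 of the 20887 genes that the probes named in this way. Hcar1 and Hcar2 each had a second probe ID.

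Gene expression was profiled in cecum and liver of male C57Bl/6 mice that were 20 weeks old after 8 weeks on 1 of 4 diets. HFD was a high fat diet with 45% of its energy from fat, and LFD was a low fat diet with 10%. HFD + inulin was the high fat diet with part of its starch and cellulose, 10% by weight, exchanged for the fructan inulin. In HFD + inul PB the exchange was for inulin propionate ester and inulin butyrate ester, 5% of each, so this diet carried both acyl groups together and their separate effects cannot be told apart. The arrays came from whole cecum (6 arrays each of HFD and HFD + inulin, 5 each of LFD and HFD + inul PB) and from liver (6 for each diet). No array was labelled as a pool, and nothing in the labels ties a cecum to the liver of the same mouse.

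All 8 are G protein-coupled receptors. Ffar2 and Ffar3 respond to the short chain fatty acids that gut bacteria release from fermentable fiber, and in the gut they are known from enteroendocrine cells, with Ffar2 also in leukocytes and fat cells. Ffar1 and Ffar4 respond to long chain fatty acids, Gpr84 to medium chain fatty acids and Gpr119 to fatty acid amides and monoacylglycerols. Hcar1 is the lactate receptor, and Hcar2 responds to beta-hydroxybutyrate, butyrate and niacin.

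Between 48.4% and 55.9% of spots were well above background, the scanner software's own test of a spot against its surroundings, on the cecum arrays, and between 46.4% and 51.7% on the liver arrays. No spot was saturated. The liver marker Alb (albumin) was well above background on 0 of 22 cecum and 24 of 24 liver arrays, whereas the epithelial genes Vil1, Krt20 and Slc26a3 were above it on 22 of 22 cecum and 0 of 24 liver arrays. These genes separated the tissues most cleanly, and most others of the same marker lists passed in both. Among them, the hepatocyte markers Ttr and Tat passed on 22 of 22 cecum arrays. The epithelial markers Krt8 and Cdh1 passed on 24 of 24 liver arrays. Each tissue filled 3 slides, and each slide held all 4 diets.

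In cecum, 4 of the 8 receptor genes were well above background on every array: Ffar2, Ffar3, Ffar4 and Hcar2. In liver this held for Ffar3 alone. The other genes gave a measured signal on few arrays or none. In cecum the Hcar1 probe passed on 1 of 22 arrays, fed HFD, and Ffar1, Gpr84 and Gpr119 on 0 of 22. In liver Hcar2 passed on 6 of 24 arrays, Ffar1 on 2 and Gpr84 on 1, while Ffar2, Ffar4, Hcar1 and Gpr119 passed on 0 of 24. A signal that did not pass gives only an upper bound on the level, so diets were compared for the genes that passed on every array of at least 1 diet of the tissue, which are called measured below.

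**Figure D1:**
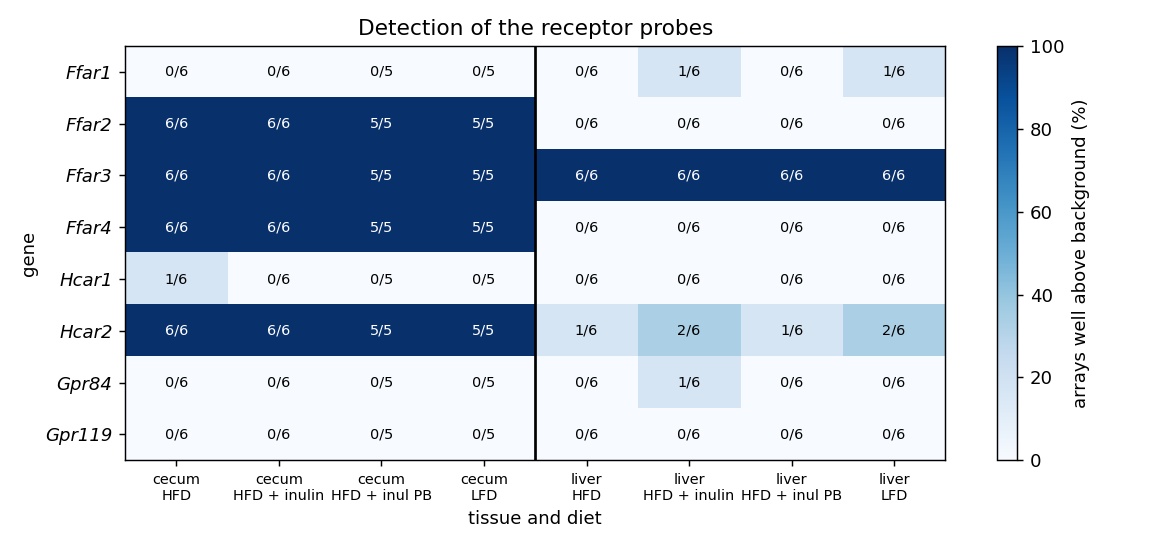
Number of arrays on which each receptor probe was well above background, by tissue and diet; shading gives the percentage of the arrays in that group. Ffar2, Ffar4 and Hcar2 fill every cecum column and Ffar3 fills every column of both tissues, while Gpr119 is at 0 in all 8 columns.

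The signals below are log2 normalised probe signals, so a difference of 1 is a doubling of signal. They depend on the probe and are compared between arrays, not between genes. A gene is said to rise or fall where LIMMA, fitted over all 55681 probes and all 4 diets of a tissue, gave a Benjamini-Hochberg adjusted P below 0.05. The criteria of the study, a fold difference above 1.5 with an unadjusted P below 0.01, were counted beside it.

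Among the short chain fatty acid receptors, cecal Ffar2 fell on HFD + inul PB. Its log2 signal on HFD ranged from 8.50 to 9.85 with a median of 8.80. On HFD + inul PB the 5 arrays read 8.17, 8.07, 7.92, 8.22 and 7.61. All 5 lay below all 6 HFD arrays, a separation in that direction that 4.22% of all probes showed. The mean was 8.94 ± 0.49 (SD, n = 6) on HFD and 8.00 ± 0.25 (SD, n = 5) on HFD + inul PB, a difference of -0.94 (SE 0.23, 95% interval -1.42 to -0.47), or 1.92-fold lower (LIMMA, adjusted P = 0.0159, unadjusted P = 0.000528). An exact two-sided permutation test of this gene alone gave P = 0.00433, where 0.00216 is the smallest P that these group sizes allow.

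Ffar2 was the 1 receptor gene of the 4 measured in cecum that fell on HFD + inul PB, and none rose. Of all probes, 7.02% passed the adjusted threshold in this comparison and 4.69% passed the criteria of the study, which Ffar2 also met. The difference was negative on each slide, at -0.82, -0.79 and -1.26. Without replicate 5 of HFD + inul PB, the array with the lowest Ffar2 signal, the difference was -0.85 and the adjusted P was 0.0545. Leaving out any other single cecum array kept the call.

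On HFD + inulin the Ffar2 signal ranged from 8.33 to 9.14 with a median of 8.54, which overlapped HFD. The difference from HFD was -0.29 (95% interval -0.75 to 0.16, LIMMA adjusted P = 0.569). All 5 HFD + inul PB arrays also lay below all 6 HFD + inulin arrays, as 0.324% of probes did. The esters differed from plain inulin by -0.65 (95% interval -1.12 to -0.17), with an unadjusted P of 0.0102 and an adjusted P of 0.649 in LIMMA. The exact permutation P was 0.00433, so the separation seen in this gene alone did not pass the correction over all probes.

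The LFD arrays read 9.04, 9.40, 8.67, 8.21 and 8.68 for Ffar2. They spanned most of the HFD range, with the fourth just below the highest HFD + inul PB array, and LFD differed from HFD by -0.14 (95% interval -0.62 to 0.33, LIMMA adjusted P = 0.929). The mean of both fiber diets was lower than LFD by 0.48 on the log2 scale (LIMMA difference -0.48, unadjusted P = 0.0293, adjusted P = 0.339).

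**Figure D2:**
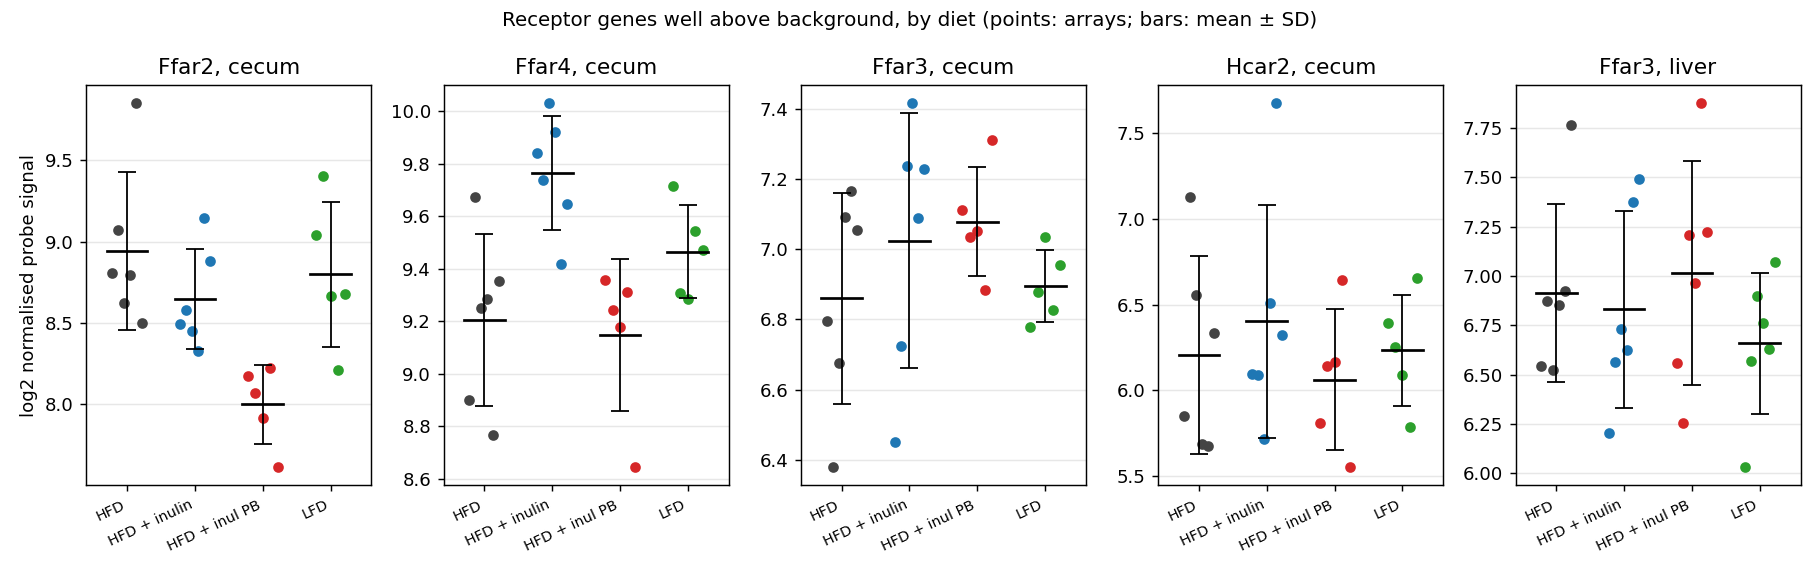
Log2 normalised signal of the receptor probes measured in cecum (Ffar2, Ffar4, Ffar3, Hcar2) and liver (Ffar3), by diet. Each point is an array and bars give the mean ± SD; the 5 HFD + inul PB arrays lie below all HFD and HFD + inulin arrays for Ffar2, and below all HFD + inulin arrays for Ffar4.

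Ffar3, the other short chain fatty acid receptor, is the neighbouring protein-coding gene of Ffar2 on chromosome 7, with Ffar1 on its other side in the RefSeq gene order. Its cecal signal ranged from 6.38 to 7.16 on HFD, with a median of 6.92, and from 6.45 to 7.42 on HFD + inulin, with a median of 7.16. It read 7.11, 7.04, 7.05, 6.88 and 7.31 on HFD + inul PB and 6.78, 6.88, 7.03, 6.83 and 6.96 on LFD. All 4 diets overlapped.

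Ffar3 did not pass the test in any comparison. It differed from HFD by 0.16 (95% interval -0.15 to 0.48) on HFD + inulin, by 0.22 (-0.11 to 0.55) on HFD + inul PB and by 0.03 (-0.30 to 0.36) on LFD, with LIMMA adjusted P values of 0.647, 0.50 and 0.987. These intervals leave room for a rise of at most 0.55 on the log2 scale. The interval for HFD + inul PB does not reach the size of the fall in Ffar2.

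Ffar4, a receptor for long chain fatty acids, was highest on HFD + inulin. In cecum its log2 signal ranged from 8.77 to 9.67 on HFD, with a median of 9.27, and from 9.42 to 10.03 on HFD + inulin, with a median of 9.79. The 5 HFD + inul PB arrays read 9.36, 9.24, 9.18, 9.31 and 8.64, and the LFD arrays read 9.71, 9.31, 9.28, 9.54 and 9.47. On HFD + inulin 4 of the 6 arrays exceeded every HFD array, though the groups overlapped, and the HFD + inul PB arrays lay within or below the HFD range.

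Mean Ffar4 signal was 9.77 ± 0.22 (SD, n = 6) on HFD + inulin and 9.20 ± 0.33 (SD, n = 6) on HFD. The difference of 0.56 (SE 0.15, 95% interval 0.25 to 0.87), or 1.47-fold, had an unadjusted P of 0.00127 and an adjusted P of 0.0617 in LIMMA, and it met neither threshold. The exact permutation P was 0.00649. The call sat at the threshold: 5 of 10 other ways of processing the data, and 3 of 22 fits that each left out 1 array, put the adjusted P below 0.05, over a range from 0.00976 to 0.204 among the former. Within slides the difference was 0.50, 0.71 and 0.47.

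No receptor gene measured in cecum therefore passed the adjusted threshold on HFD + inulin, as against 1.58% of all probes. In the same LIMMA fit 1 of the 4, Ffar4, had an unadjusted P below 0.05, as in the permutation test. Of all 55681 probes, 7873 had an unadjusted LIMMA P below 0.05 in this comparison. No measured receptor gene met the criteria of the study, which 2.47% of probes did.

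HFD + inul PB and HFD + inulin gave Ffar4 signals that did not overlap. All 5 ester arrays were lower than all 6 inulin arrays, as was so for 0.324% of all probes. The difference was -0.62 (SE 0.16, 95% interval -0.95 to -0.29), or 1.54-fold lower, with an unadjusted P of 0.000803 and an adjusted P of 0.378 in LIMMA and an exact permutation P of 0.00433. It met the criteria of the study, as did 0.803% of all probes, but not the adjusted threshold, which 0.0216% of probes met. Across the same comparison 2 of the 4 measured genes, Ffar2 and Ffar4, had an unadjusted P below 0.05, both lower on the esters, and 0 of 4 had an adjusted P below 0.05. Of all 55681 probes, 3543 had an unadjusted LIMMA P below 0.05 in this comparison.

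Against HFD, Ffar4 differed by -0.06 (95% interval -0.38 to 0.27) on HFD + inul PB and by 0.26 (-0.07 to 0.59) on LFD, with LIMMA adjusted P values of 0.899 and 0.839. The interval for the esters lies almost wholly below the one for inulin. Both fiber comparisons share the HFD arrays.

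**Figure D3:**
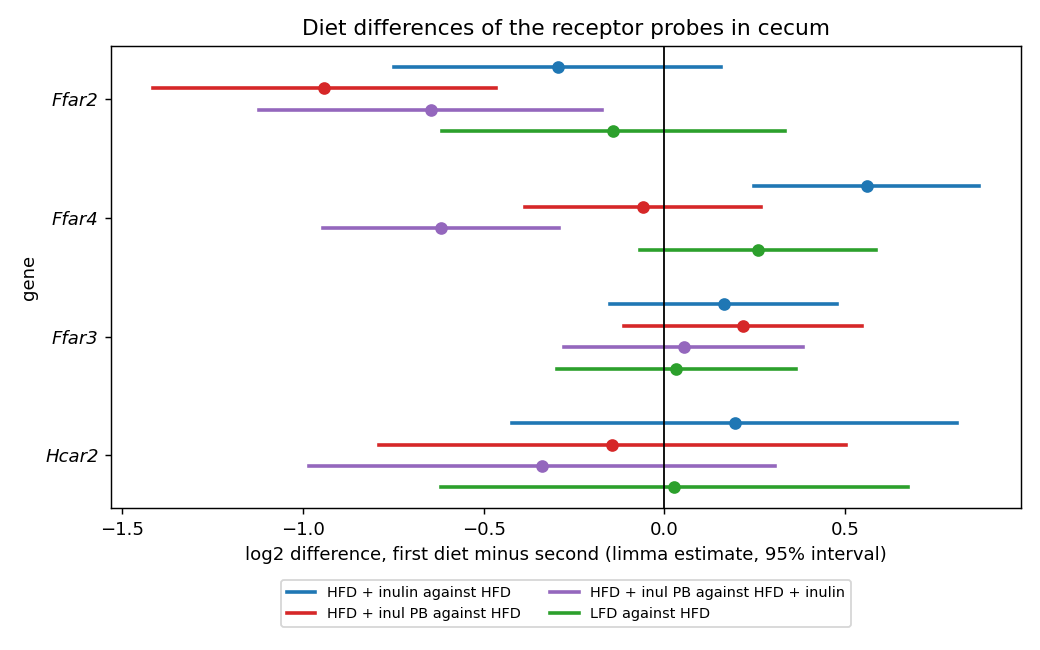
Log2 difference in cecal signal (x axis, first diet minus second, LIMMA estimate with 95% interval) for the 4 measured receptor genes (y axis) and 4 comparisons of diets. The intervals of Ffar2 for HFD + inul PB against HFD (-1.42 to -0.47) and of Ffar4 for HFD + inulin against HFD (0.25 to 0.87) do not reach 0, nor do those of either gene for the esters against inulin, whereas all intervals of Ffar3 and Hcar2 do.

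Hcar2, the receptor for beta-hydroxybutyrate and butyrate, was measured on all 22 cecum arrays and varied widely among arrays of the same diet. Its log2 signal ranged from 5.68 to 7.13 on HFD (median 6.09) and from 5.72 to 7.67 on HFD + inulin (median 6.21). It read 5.81, 6.14, 6.17, 6.64 and 5.55 on HFD + inul PB and 6.39, 6.25, 6.09, 5.79 and 6.65 on LFD. The highest array, replicate 5 of HFD + inulin, stood at 7.67, and all diets overlapped.

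Differences in Hcar2 from HFD were 0.19 (95% interval -0.42 to 0.81) on HFD + inulin, -0.14 (-0.79 to 0.50) on HFD + inul PB and 0.03 (-0.62 to 0.67) on LFD, with LIMMA adjusted P values of 0.796, 0.864 and 0.997. The intervals are wide and do not show that the diets were alike. The second Hcar2 probe was well above background on none of the 46 arrays. Hcar1, which lies next to Hcar2 on chromosome 5, reached at most 5.51 in cecum, and 1 of the 22 arrays passed.

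Between LFD and HFD none of the 4 receptor genes measured in cecum passed the adjusted threshold in LIMMA, and 0 of 4 had an unadjusted or a permutation P below 0.05; 0% of all probes passed the adjusted threshold. When both fiber diets were averaged and set against LFD, 0 of 4 passed, beside 1.12% of probes, and 1 of 4, Ffar2, had an unadjusted P below 0.05. Of the 55681 probes, 2919 had an unadjusted LIMMA P below 0.05 for LFD against HFD and 6616 for the fiber diets against LFD.

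In liver Ffar3 was the 1 measured member, and its signal did not differ between diets beyond the spread. It ranged from 6.52 to 7.77 on HFD (median 6.86), from 6.20 to 7.49 on HFD + inulin (median 6.68), from 6.25 to 7.88 on HFD + inul PB (median 7.09) and from 6.03 to 7.07 on LFD (median 6.69). Differences from HFD were -0.08 (95% interval -0.64 to 0.47), 0.10 (-0.45 to 0.65) and -0.26 (-0.81 to 0.30) for HFD + inulin, HFD + inul PB and LFD. The 4 diets overlapped, and no LIMMA adjusted P fell below 0.908 in these comparisons.

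Over all 5 comparisons of diets in liver, 0 receptor genes passed the adjusted threshold in LIMMA. The share of all probes that passed was 0% for HFD + inulin, HFD + inul PB and the esters against inulin, 0.0287% for LFD against HFD and 0.0593% for the fiber diets against LFD. Ffar3 had no unadjusted or permutation P below 0.05. Gpr84, which was well above background on 1 liver array of HFD + inulin and is not counted as measured, had an unadjusted LIMMA P of 0.0284 for the esters against inulin and an adjusted P of 1.00.

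Set against liver on HFD, with the arrays of both tissues normalised together, Ffar2 and Ffar4 were higher in cecum. Mean Ffar2 signal was 8.72 ± 0.45 in cecum and 4.60 ± 0.49 in liver (SD, n = 6 each), where no array passed, which makes it at least 11.3-fold higher in cecum (LIMMA adjusted P = 4.73e-14). Ffar4 was at least 14.1-fold higher, at 8.98 ± 0.37 against 3.16 ± 0.50 (adjusted P = 3.07e-24). The bound sets each liver array at the lowest signal that passed on it, where this was higher than the probe itself.

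Hcar2 was also higher in cecum (LIMMA adjusted P = 0.00167), at 6.05 ± 0.56 against 4.41 ± 0.75 (SD, n = 6 each). Its probe passed on 1 of these liver arrays, so the size of this difference is not well determined. Ffar3 differed the other way, by -0.50 (-0.95 to -0.05), with an adjusted P of 0.0637. These 3 of the 4 genes measured in at least 1 of the tissues thus passed, in a comparison that 46.9% of all probes passed. In bulk tissue fewer cells of a type and less RNA per cell cannot be told apart, for this and every difference given here.

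Ffar3 was the 1 receptor gene measured in both tissues, so its response to fiber could be compared between them. The change from HFD to the mean of the fiber diets was larger in cecum than in liver by 0.14 (95% interval -0.41 to 0.70, LIMMA interaction adjusted P = 0.880). This interaction passed for 2.1% of all probes.

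Other parts of the same signalling were read from lists of genes. The receptors act through G proteins, and of 14 transducers (Gi, Gq and Gs subunits, arrestins and phospholipase C beta) 13 were measured in cecum. On HFD + inulin 2 rose and 0 fell, and on HFD + inul PB 1 rose and 0 fell. Of all probes in cecum, 1.58% passed with plain inulin and 7.02% with the esters, each set against HFD. Counts for this list and the lists below stand beside these shares. Whether any list differed from them was not tested. Gnai2, an inhibitory G protein subunit that couples to Ffar2, Ffar3 and Hcar2, rose by 0.34 (SE 0.07, LIMMA adjusted P = 0.0161) on HFD + inulin and by 0.27 (SE 0.07, adjusted P = 0.0280) on HFD + inul PB. Gnai3, another inhibitory subunit, rose by 0.25 (SE 0.06, adjusted P = 0.0455) on HFD + inulin and differed by 0.20 on HFD + inul PB (adjusted P = 0.0645). The median of the list was -0.03 and -0.10 on the log2 scale, against medians of 0.01 and 0.00 over all probes.

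Peptides and amines of enteroendocrine cells, whose release the short chain fatty acid receptors are known to trigger, were measured for 11 of 13 genes. On each fiber diet 0 rose and 1 fell, Sct, which encodes secretin. Sct fell by 0.51 (SE 0.09, LIMMA adjusted P = 0.0104) on HFD + inulin and by 0.67 (SE 0.10, adjusted P = 0.000659) on HFD + inul PB. Gcg, which encodes the precursor of GLP-1, differed by 0.39 (SE 0.31) and -0.11 (SE 0.32), and Pyy, the peptide YY gene, by 0.35 (SE 0.28) and 0.15 (SE 0.30); neither passed. The median of the list was 0.18 and 0.15, with single differences from -1.67 to 0.68 and from -1.34 to 0.92. The summed log2 signal of the list was lower on the esters, from 15.41 to 15.64 against 15.88 to 16.16 on HFD. Of single probes, 4.22% lay lower on every HFD + inul PB array than on all HFD arrays. A sum weighs the brightest probes most, and with a median difference of 0.15 it does not show a fall of the whole list. On HFD + inulin this sum ranged from 15.21 to 15.91.

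Of 9 enzymes that make or use the receptors' ligands, all 9 were measured, and on each fiber diet 0 rose and 1 fell. Oxct1, the mitochondrial enzyme that activates ketone bodies for oxidation, fell by 0.98 (SE 0.23, LIMMA adjusted P = 0.0352) on HFD + inulin and by 1.03 (SE 0.24, adjusted P = 0.0120) on HFD + inul PB. The median of the list was 0.12 and -0.07.

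Of 10 other metabolite receptors 6 were measured in cecum, and none of the 6 passed on either fiber diet. Gpr18, a receptor that lymphoid cells express, is not among the 6, since it was well above background on 5 of 6 HFD arrays and 0 of 5 HFD + inul PB arrays. It was at least 1.64-fold lower with the esters (LIMMA adjusted P = 0.0253). The median of all 10 was -0.26 and -0.46. In liver none of the genes of these 4 lists passed on either fiber diet.

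Markers of cell types known to carry these receptors were read on the same arrays. The summed signal of 8 adipocyte markers ranged from 14.24 to 17.62 on the log2 scale on HFD, from 12.42 to 16.67 on HFD + inulin, from 12.79 to 14.70 on HFD + inul PB and from 13.09 to 17.09 on LFD. On HFD + inul PB 2 of these 8 fell and 0 rose, in a comparison that 7.02% of all probes passed. All 8 were lower than on HFD, by a median difference of -3.68 (lowest -6.21, highest -0.93). Some of these signals were not well above background, so the sizes are not well determined. Fabp4, the fatty acid binding protein of fat cells, fell by 3.05 (SE 0.88, LIMMA adjusted P = 0.0400), and Plin1, a lipid droplet protein, was well above background on 6 of 6 HFD arrays and 1 of 5 HFD + inul PB arrays, so that its fall (adjusted P = 0.0486) is given no size. Adipoq was well above background on all 6 HFD and 2 of 5 HFD + inul PB arrays.

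HFD array 4, with the lowest adipocyte sum of that diet (14.24), read 8.79 for Ffar2. HFD + inul PB array 4, with the highest sum of its diet (14.70), read 8.22, which was also the highest Ffar2 signal of that diet. These are single arrays picked by their adipocyte sum, and no conclusion is drawn from them. The part of adipose tissue in the Ffar2 difference was not tested.

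Macrophage markers overlapped between diets, with a summed signal from 15.07 to 15.79 on HFD and from 15.02 to 15.62 on HFD + inul PB. Of 8 with a probe, 1 fell on HFD + inul PB, the complement gene C1qa, by 0.91 (SE 0.22, LIMMA adjusted P = 0.0159), and 0 rose. The 8 differed from HFD by a median of -0.36 on HFD + inul PB (lowest -0.91, highest 0.03), and for the esters against inulin all 8 were lower, by differences from -0.43 to -0.09, with 0 passing. The summed signal is mostly that of the brightest probe, Itgam. Of 6 neutrophil markers 1 was measured and 0 passed. Enteroendocrine markers ranged from 12.26 to 13.34 on HFD and from 12.85 to 13.30 on HFD + inul PB, and 0 of 9 passed. Epithelial markers ranged from 17.68 to 18.41 and from 17.56 to 17.94, and 0 of 4 passed. The part of these cells in the Ffar2 difference was not tested.

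On HFD + inulin, where Ffar4 was highest, 0 of 8 adipocyte, 0 of 8 macrophage and 0 of 4 epithelial markers passed. All 8 adipocyte markers were nonetheless lower than on HFD, by a median difference of -2.03 (lowest -3.68, highest -0.94). Of 7 absorptive colonocyte markers 2 rose, Slc26a3 by 1.04 (SE 0.25, LIMMA adjusted P = 0.0388) and Car4 by 0.82 (SE 0.16, adjusted P = 0.0144); both also rose on HFD + inul PB, by 1.21 and 1.20. Of 8 enteric neuron markers 3 fell on HFD + inulin, Uchl1 and Ret among them, and 0 on HFD + inul PB. The median difference of these 8 was -0.83 on HFD + inulin, whereas their summed signal had a median of 14.41 on HFD and 14.90 on HFD + inulin. That sum is mostly the signal of the brightest probe, Snap25, which also passed on 24 of 24 liver arrays. Scgn, which was well above background on 0 of 6 HFD + inulin and 5 of 6 HFD arrays and so is not counted as measured, was the 1 of 9 enteroendocrine markers that passed, at least 1.39-fold lower. Their part in the Ffar4 difference was not tested.

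**Figure D4:**
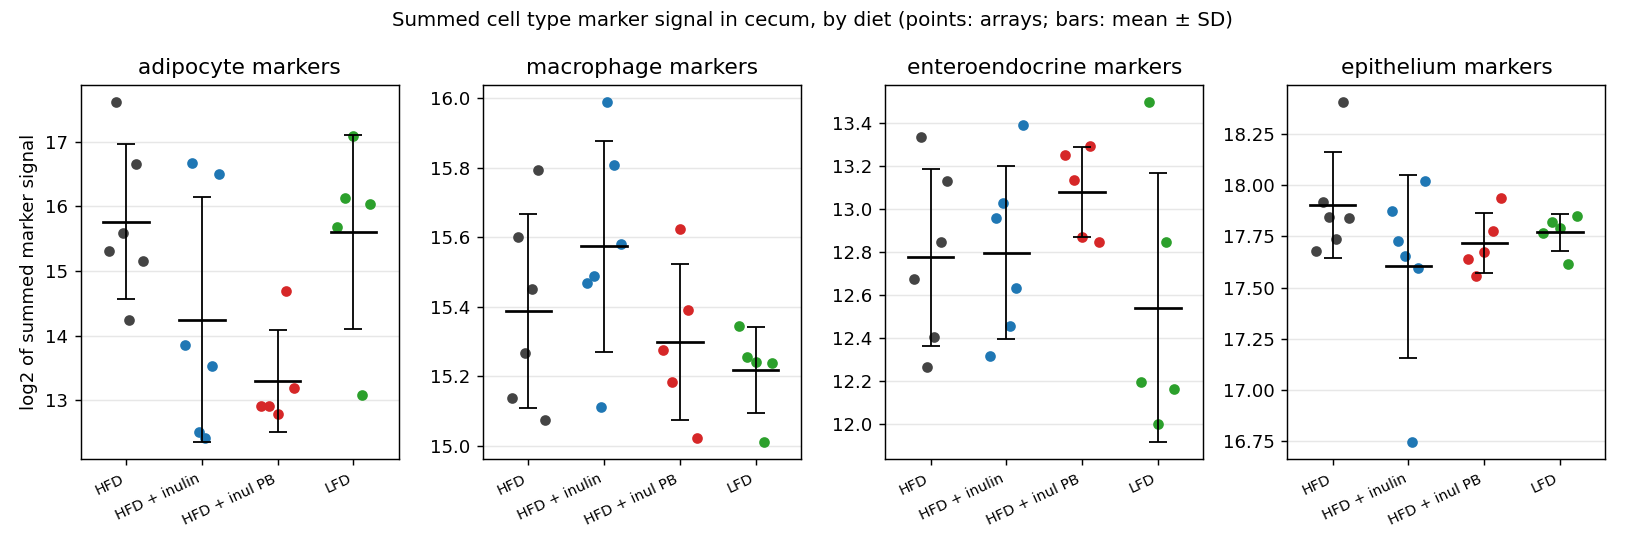
Log2 of the summed signal of 4 lists of cell type markers (y axis) on each cecum array, by diet; bars give the mean ± SD. Adipocyte markers range from 14.24 to 17.62 on HFD and from 12.79 to 14.70 on HFD + inul PB, and the diets overlap in all 4 lists.

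No strong correlation was seen among the 4 measured receptor genes across the 22 cecum arrays, a number that leaves such values imprecise. Pearson's r between pairs of them lay between -0.27 and 0.30, and between -0.38 and 0.25 after the mean of each diet was subtracted. These are descriptions, since arrays of a diet share that diet and each slide holds arrays of all diets.

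Among the 12366 genes that were well above background on every cecum array, the pattern of Ffar2 was most like that of Tspan13, which encodes a tetraspanin membrane protein. Pearson's r was 0.937 and Spearman's rho 0.884 over 22 arrays, and r was 0.910 without the 2 arrays farthest from the Ffar2 median. After subtraction of diet means r was 0.911, so the likeness held among arrays of the same diet. Before that subtraction Tpm4, a tropomyosin (r = 0.913), and Txndc11, a thioredoxin-domain protein (r = 0.910), came next. After it Trp53i13 (r = 0.888) and P2ry6 (r = 0.881) did.

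For Ffar4 the nearest gene was Mt2, a metallothionein that binds zinc, with r = 0.795 and rho = 0.804 over 22 arrays and r = 0.715 without 2. Mt2 differed from HFD by 0.86 (SE 0.23, LIMMA adjusted P = 0.0638) on HFD + inulin and by -0.79 (SE 0.24, adjusted P = 0.0519) on HFD + inul PB. Neither passed, whereas the esters differed from inulin by -1.65 (SE 0.24, LIMMA adjusted P = 0.00724). With diet means subtracted Mt2 was not among the 3 nearest, which were Tomm70a (r = 0.846), Slc25a16 (0.814) and Xpa (0.813). Ffar3 was most like BC051142 (r = 0.807, and 0.719 without 2 arrays). Hcar2 was most like H6pd (r = 0.773, rho = 0.587), and this likeness leaned in part on 2 arrays, as r was 0.493 without them. With diet means subtracted the nearest gene was Myo5c for Ffar3 (r = 0.834) and Sh2d3c for Hcar2 (r = 0.859). Each nearest gene was picked from 12366 genes, and how high the largest r would be by chance was not tested.

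**Figure D5:**
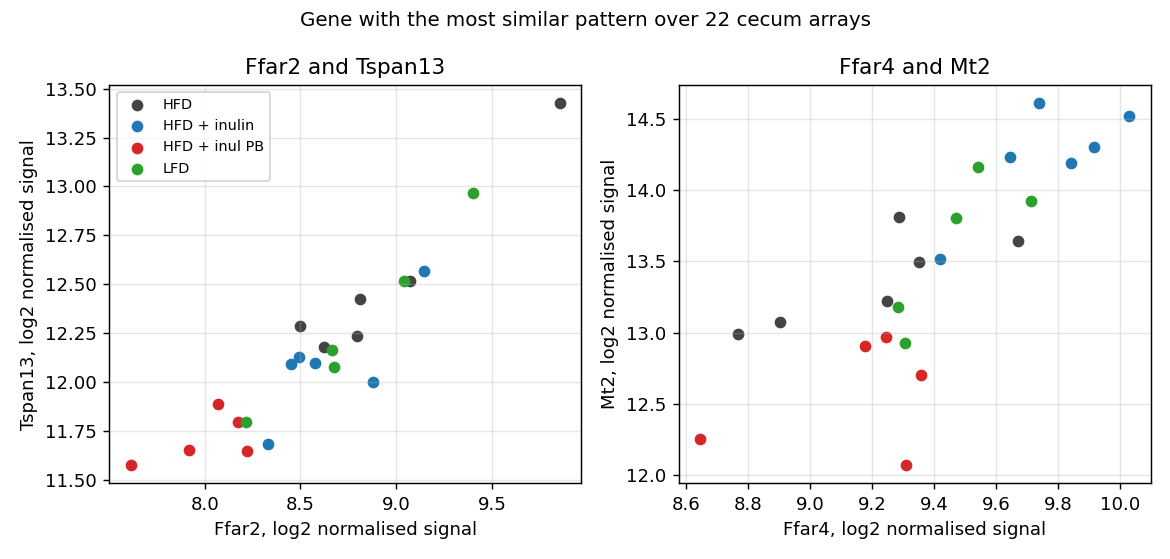
Log2 normalised signal of Ffar2 against Tspan13 and of Ffar4 against Mt2 on 22 cecum arrays, coloured by diet; each point is an array. Ffar2 and Tspan13 lie along a line (r = 0.937) with the HFD + inul PB arrays at its low end, and Mt2 is highest with Ffar4 on HFD + inulin (r = 0.795).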

How the data were processed

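Total RNA of cecum or liver was hybridised as Cy3-labelled cRNA to 1-colour Agilent SurePrint G3 arrays. The authors deposited Agilent Feature Extraction output (software version 10.7.3.1), in which intensity values are linear spot signals after background subtraction, and a table of log2 values that they had normalised by cyclic loess and averaged over identical oligos. They left out 1 cecum array each of HFD + inul PB and LFD. Here log2 of the processed signal was taken, control spots and outlier spots were removed, arrays of a tissue were normalised by cyclic loess (span 0.7) and spots of a probe were averaged. All arrays given were used. LIMMA (version 3.58.1 in R 4.3.3) was fitted to the 4 diets of each tissue, with Benjamini-Hochberg adjustment over 55681 probes. Exact two-sided permutation tests compared group means of single genes. Both tissues were normalised together for comparisons between them. The fit was tested on simulated data.

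All 8 receptor genes are named. List genes are named where they passed on a fiber diet in cecum, at most 3 a list, with further genes named after their values were seen; some list genes are not reported here. The 8 genes and the lists were chosen with earlier results of these data known. Likeness was Pearson's r. Alternatives were other normalisation (75th percentile, quantile, cyclic loess over both tissues), normexp with an offset of 50, the authors' log2 values, outlier spots kept, a background filter, slide or replicate number as a block, 2 diets only and each array left out. The number of arrays limits the precision, and P values weigh a difference against the spread between these arrays. Same-numbered arrays were checked for pairing (sensitivity below).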

Additional observations from a re-analysis of the deposited data

Results flagged for a closer look

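Of 20 combinations of a measured receptor gene and a diet, 2 held an array that stood far from the others of its group by Dixon's test, which marks about 1 in 20 groups by chance. In cecum, replicate 5 of HFD + inul PB read 8.64 for Ffar4, below the other 4 arrays of that diet, and the same array had the lowest Ffar2 signal. In liver, replicate 6 of HFD read 7.77 for Ffar3, above the other 5 arrays of that diet.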

How the results depend on the processing

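The fall of Ffar2 on HFD + inul PB was called under all 10 other ways of processing, with log2 differences from -0.99 to -0.74 and adjusted P values from 0.0067 to 0.0345. With 1 array left out at a time it lay between -1.03 and -0.76, and the number of receptor genes called between 0 (without replicate 5 of HFD + inul PB) and 1. On HFD + inulin the number called was 0, but it was 1, Ffar4, under normexp background correction, 1 with the authors' values, 1 with probes filtered on background, 1 with slide as a block and 1 with the replicate number as a block; with 1 array left out it ranged from 0 to 1. Why these settings moved it was not tested. Receptor genes called between cecum and liver on HFD numbered 3, or 4 with the replicate block, 75th percentile scaling, quantile normalization or normexp, and 3 to 4 with 1 array left out; the replicate block moved no other count. Same-numbered arrays of different diets had a median correlation of 0.0997 in cecum, with 15 of 31 pairs over 0.1, and 0.18 in liver, with 25 of 36; not every pair was over 0.1, so the numbers were not taken as pairs. Same-numbered arrays shared a slide, apart from replicate 4 in cecum, and arrays of a slide had a median correlation of 0.0855 in cecum and 0.196 in liver, so number and slide cannot be told apart in this check. In the other 9 comparisons the count was 0 under every setting run.

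Some differences that passed no test changed sign. Under normexp and the authors' values these were Ffar3 in cecum for the esters against inulin (-0.0158 and -0.00160), Ffar3 in liver on HFD + inul PB (-0.000642 and -0.00152) and Ffar4 in cecum on HFD + inul PB (0.0423 and 0.0332). For Hcar2 they were the authors' values on HFD + inul PB (0.00720), cyclic loess over both tissues on LFD (-0.0160), and scaling to the 75th percentile (0.0379) or slide as a block (0.00994) for fiber against LFD.

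With 1 array left out, differences crossed 0 as follows. Ffar2 on LFD ranged from -0.291 to 0.0416. Cecal Ffar3 ranged from -0.0604 to 0.132 for the esters against inulin and from -0.0619 to 0.0951 on LFD, and hepatic Ffar3 from -0.0727 to 0.270 on HFD + inul PB and from -0.215 to 0.0871 on HFD + inulin. Ffar4 ranged from -0.145 to 0.0672 on HFD + inul PB and from -0.0529 to 0.0548 for fiber against LFD. Hcar2 ranged from -0.288 to 0.0406 on HFD + inul PB, from -0.0592 to 0.379 on HFD + inulin, from -0.0775 to 0.212 on LFD and from -0.129 to 0.102 for fiber against LFD.

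Scaling to the 75th percentile shifted the median of all probes by 0.13 in cecum for fiber against LFD and by -0.49 for cecum against liver, and the authors' values shifted the latter by 0.15. Signals near background limit 4 of the receptor genes in cecum and 7 in liver to bounds.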
